A study of Rattus norvegicus with 10 samples.

Results

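Remote quiescent-only peaks are places on the rat genome where m6A enrichment was called in serum-free cardiomyocytes and where the nearest peak of serum-treated cells lay more than 50 kb away. They were chosen from the positions in both lists: a peak of the quiescent list, of any score, was taken when no hypertrophic peak overlapped it or lay within 50000 bp, edge to edge. The rule was met by 3120 of 68440 quiescent peaks, or 4.56% (Wilson 95% interval 4.41 to 4.72%). Both lists together held 133979 peaks. Since presence in one list and absence from the other chose these peaks, their scores, heights and widths are given as descriptions, without tests.

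The study measured N6-methyladenosine (m6A) by immunoprecipitating RNA with an antibody and sequencing it, in primary cardiomyocytes isolated from rats 1 to 3 days old. Quiescent cells were kept in M199 medium without serum, and hypertrophic cells in M199 with 2% bovine serum. Each condition had 2 m6A immunoprecipitates and 2 input libraries, and 2 further immunoprecipitates, made with normal IgG in place of the m6A antibody, came from hypertrophic cells only. The authors deposited 1 peak list per condition, each named as called against that negative control, and the labels do not say whether a list joins both replicates. No value below therefore has a replicate error, and intervals cover counting error only. The cells are primary isolates whose purity could not be checked against marker genes, since the lists name no genes, and how many animals were pooled is not stated in the labels.

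m6A is placed on nascent RNA by a methyltransferase complex built around METTL3 and METTL14, can be removed by demethylases such as FTO, and is read by YTH-domain proteins that affect the stability and translation of the RNA. In mRNA it is known to gather near stop codons, in 3′ untranslated regions and in long internal exons. In heart muscle cells this pathway has been studied for its part in hypertrophic growth. A peak in such data needs both the mark and the RNA that carries it, so a gain of the mark and a gain of the RNA cannot be told apart from a peak list. Positions are in the rat build rn4, counted from 1. Peaks are named by position because the gene table at hand is of another assembly, and no sequence is printed for the same reason.

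The remote quiescent-only peaks were weak and small as a group. Their median score was 78.8, with quartiles of 61.3 and 116, where the score is the authors' value for a peak and has the layout of the MACS 1.4 output, a multiple of minus the log10 of its p-value. By comparison, the median was 75.9 for the 16735 quiescent-only peaks lying nearer to a hypertrophic peak, and 174 for the 48585 quiescent peaks that overlapped one. Neither list holds a peak scoring under 50, and a site absent from a list could have fallen short of that floor. A score of at least 200 was reached by 265 of the remote peaks (8.49%, Wilson interval 7.57 to 9.52%), against 34.1% of all quiescent peaks. Only 2 of them (0.0641%) scored 1000 or more, against 4156 of the shared quiescent peaks (8.55%) and 6.11% of all quiescent peaks.

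Summit heights, the authors' pileup at the highest base of a peak, were low. The median height was 8, with quartiles of 7 and 11, against 9 for nearer quiescent-only peaks and 20 for those that were shared. A height of 7 or less was found at 1116 remote peaks (35.8%), against 31.8% of nearer quiescent-only peaks, 7.61% of shared quiescent peaks and 14.8% of the whole quiescent list. The lowest height in the quiescent list, 4, occurred at 28 remote peaks (0.897%), against 0.872% of nearer quiescent-only peaks and 0.345% of the whole quiescent list. No peak of the hypertrophic list was lower than 5. Widths had a median of 250 bp, with quartiles of 204 and 341 bp, against 388 bp for shared quiescent peaks. Together the remote peaks covered 910 kb, out of 31470 kb for the whole quiescent list.

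The same rule, applied the other way round, found far fewer peaks. Hypertrophic peaks with no quiescent peak within 50 kb numbered 1264 of 65539, or 1.93%, so that 2.47 times as many peaks were remote in the quiescent list (exact interval 2.31 to 2.64), while the lists as a whole stood at a ratio of 1.04. The shares of peaks with no overlap at all differed much less, at 29.0% of quiescent and 25.8% of hypertrophic peaks. The remote quiescent-only peaks had the higher median score, 78.8 against 68.1, yet the lower median height, 8 against 11. Their median width was 250 bp, against 213 bp for remote hypertrophic-only peaks.

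The imbalance between the conditions grew with distance. Among condition-only peaks up to 1 kb from the other list there were 2848 quiescent and 2546 hypertrophic ones, a ratio of 1.12. From 1 to 10 kb the ratio was 0.970, and from 10 to 50 kb it was 1.17. In the next class, past the limit, 1729 quiescent-only and 825 hypertrophic-only peaks lay at 50 to 100 kb, a ratio of 2.10 (exact interval 1.93 to 2.28). The class from 10 to 50 kb is broad, so these classes do not place the rise at the limit itself. The counts were 908 and 316 at 100 to 200 kb, a ratio of 2.87 (2.53 to 3.28), and 433 and 111 at 200 to 500 kb, a ratio of 3.90 (3.16 to 4.85). Beyond 500 kb there were 50 quiescent-only and 12 hypertrophic-only peaks.

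**Figure D1:**
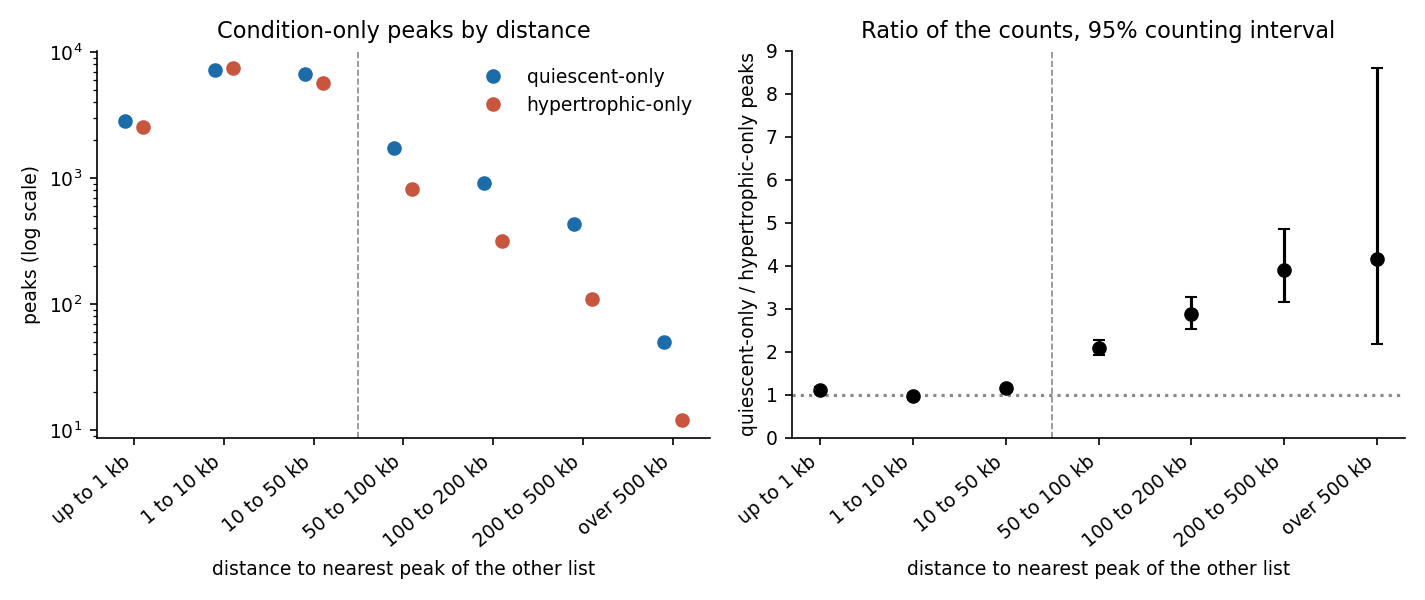
Left, number of quiescent-only (blue) and hypertrophic-only (red) peaks in each class of distance to the nearest peak of the other list, on a log axis; right, the ratio of the counts with its exact 95% counting interval, a dotted line at 1 and a dashed line at the 50 kb limit. The ratio lies between 0.970 and 1.17 in the classes below 50 kb and is 2.10 or more in every class beyond it. The classes are of unequal width and do not place the rise at the limit itself.

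The distance itself had a median of 90724 bp for the remote quiescent-only peaks, with quartiles of 64805 and 152388 bp. It exceeded 100 kb at 1391 of them and 200 kb at 483. The peak farthest from any hypertrophic peak lay on chromosome X from 106699434 to 106699678, at 952055 bp, and was itself faint, scoring 50.8 at a height of 5. A neighbouring pair on chromosome 4 came next: the peak from 36210661 to 36211248 was 929531 bp away, scored 308 and was 11 high, and the one from 36229241 to 36229622 was 911157 bp away, scored 168 and was 10 high. Another peak of chromosome 4, from 89331994 to 89332212, was 895350 bp away and scored 84.1. The fifth opened the largest run of all, on chromosome 1 at 74943194.

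Peaks on both sides of the 50 kb limit had like values. The 568 quiescent-only peaks at 50 to 60 kb had a median score of 82.7 and a median height of 9, and the 736 at 40 to 50 kb had 77.2 and 8. Just inside lay a peak of chromosome 11 from 46328328 to 46328461, at 50029 bp with a score of 98.1, and one of chromosome 17 from 52424131 to 52424417, at 50037 bp with a score of 82.7. Just outside were a peak of chromosome 9 from 39750219 to 39750855, at 49966 bp with a score of 469, and one of chromosome 13 from 4569057 to 4569285, at 49943 bp with a score of 72.0.

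The excess of remote quiescent-only over remote hypertrophic-only peaks depended on the height of the pileup. Among peaks with a height of 7 or less there were 1116 quiescent and 183 hypertrophic ones, a ratio of 6.10 (exact interval 5.21 to 7.17), and all peaks of that height stood at 1.97. At heights of 8 to 15 the counts were 1651 and 746, a ratio of 2.21. At heights of 16 to 45 they were 303 and 259, a ratio of 1.17 (0.988 to 1.39) that includes equal numbers. Above 45 the order was the other way, with 50 quiescent-only and 76 hypertrophic-only peaks, a ratio of 0.658 (0.451 to 0.952). When both lists were first limited to peaks with a height of at least 10, the overall ratio was 1.12 in place of 2.47.

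By score the excess ran in the opposite sense. With scores of at least 100 there were 1022 remote quiescent-only and 218 remote hypertrophic-only peaks, a ratio of 4.69 (4.05 to 5.45). With scores of at least 200 there were 265 and 21, a ratio of 12.6 (8.09 to 20.7), while all peaks of that score stood at 1.14. Remote quiescent-only peaks thus had more high scores and more low pileups than their hypertrophic counterparts. The nearer condition-only peaks differed in the same way: 7.74% of quiescent-only and 2.56% of hypertrophic-only ones scored at least 200, and 31.8% and 15.5% had a height of 7 or less. Among the remote quiescent-only peaks scoring 200 or more the median height was 14, with quartiles of 12 and 18. Of these, 231 of 265 (87.2%) were no taller than 20. Shared quiescent peaks scoring 200 or more had a median height of 33, and the 21 remote hypertrophic-only peaks one of 27. The shared peaks reached higher scores, with 15620 of 21785 at 300 or above, against 101 of the 265 remote ones. From 200 to 300 the median height was 13 for remote and 21 for shared quiescent peaks.

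The gap in height was widest among the highest scores. Among scores of 50 to 60, the 657 remote quiescent-only peaks had a median height of 6, and the 2834 shared quiescent peaks one of 8. From 100 to 150 it was 10 and 14, over 565 and 8309 peaks. At 300 and above it was 16 for 101 remote peaks and 39 for 15620 shared ones. That class has no upper limit, and scores within it were not alike: the median was 379 for remote and 598 for shared peaks. Nearer quiescent-only peaks were almost as low for their score, with median heights of 7, 11 and 17 in these 3 classes. In the hypertrophic list remote peaks had a median height of 13 and shared ones 15 from a score of 100 to 150, and 22.5 and 25 from 200 to 300. At 300 and above the order was the other way, with 73 for only 9 remote hypertrophic-only peaks and 50 for shared hypertrophic peaks. Widths differed in both directions: remote quiescent-only peaks had a smaller median width than shared quiescent peaks in the classes up to a score of 150 and at 300 and above, where the medians were 570 and 635 bp. From 200 to 300 they were wider, at 462.5 against 422 bp.

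**Figure D2:**
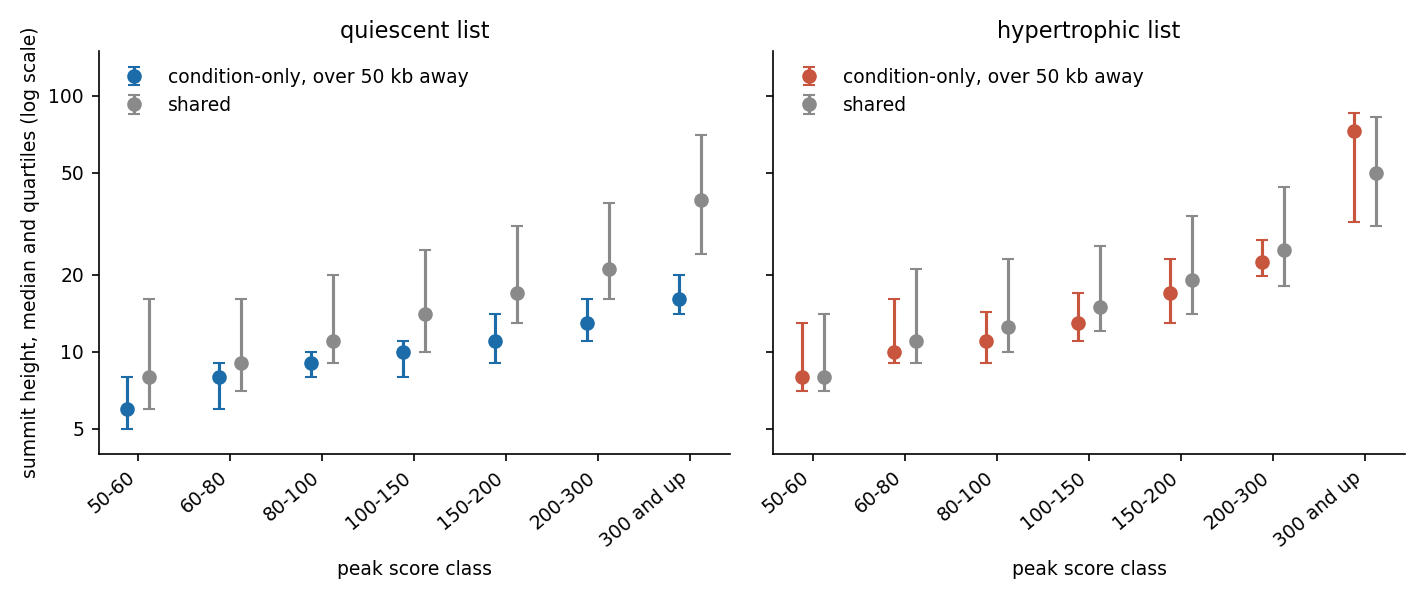
Median summit height with quartiles (log axis) by class of peak score, for condition-only peaks over 50 kb from the other list (coloured) and shared peaks (grey), in the quiescent list (left) and the hypertrophic list (right). In the quiescent list the coloured medians lie below the grey ones in every class, from 6 against 8 at scores of 50 to 60 to 16 against 39 at 300 and above. That last class has no upper limit, and its median score was 379 for remote and 598 for shared quiescent peaks.

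The scores carried a record of the reads behind them. MACS derives the p-value of a peak from its read count and a Poisson expectation, which is the larger of a rate for the whole genome and rates read from the control around the peak. Pairs of width and score recurred exactly at unrelated places: 15 remote quiescent-only peaks on 9 chromosomes were 245 bp wide with a score of 50.76, and 96 peaks of the whole quiescent list shared that pair. Such a pair was shared with at least 1 other quiescent peak by 2284 remote peaks (73.2%), against 25.9% of shared quiescent peaks and 35.1% of all quiescent peaks. In the hypertrophic list it was so for 62.5% of remote and 27.3% of shared peaks. The recurring scores equalled minus 10 times the log10 of the Poisson chance of more than n reads, for whole numbers n, at one constant rate. That rate was 5.25 reads per kb in the quiescent list, where 94.1% of 1610 recurring pairs matched within 0.011 score units. It was 5.43 reads per kb in the hypertrophic list, with 93.9% of 1465 pairs matched. Of the rates tried well away from the fitted one, none matched more than 2.17% of the pairs in either list, even at a wider tolerance. The commonest scores of narrow peaks were matched best as if these peaks were 164 bp (quiescent) or 166 bp (hypertrophic) wide, and that width was used for all narrower peaks. The sources used here do not state how the rates were set, and they are not read as depths.

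A constant-rate score of this kind was found at 2223 of the 3120 remote quiescent-only peaks, or 71.3% (Wilson interval 69.6 to 72.8%), against 41.1% of all quiescent peaks. The share was 54.7% among nearer quiescent-only peaks and 34.4% among shared quiescent peaks. In the hypertrophic list the corresponding shares were lower or like: 569 of 1264 remote hypertrophic-only peaks (Wilson interval 42.3 to 47.8%), 34.5% of shared ones and 36.1% of all hypertrophic peaks. With a rate set 3% too high, only 0.139% of quiescent peaks matched. Among remote quiescent-only peaks the share was 67.3% at scores of 50 to 60, 78.4% from 100 to 150 and 88.1% at 300 and above. Shared quiescent peaks stayed between 33.8 and 36.2% in every score class. Among quiescent-only peaks the share was alike on both sides of the limit, at 70.4% from 40 to 50 kb and 70.2% from 50 to 60 kb. With distance it was 69.7% at 50 to 100 kb, 72.4% at 100 to 200 kb and 73.4% at 200 to 500 kb. The share also varied with width. At 220 to 300 bp it was 83.8% for remote, 67.8% for nearer and 49.2% for shared quiescent peaks. Below 150 bp these shares were 41.4, 39.0 and 35.0%. Whether the source of the IgG control, which was hypertrophic cells for both lists, plays a part in these shares was not tested.

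**Figure D3:**
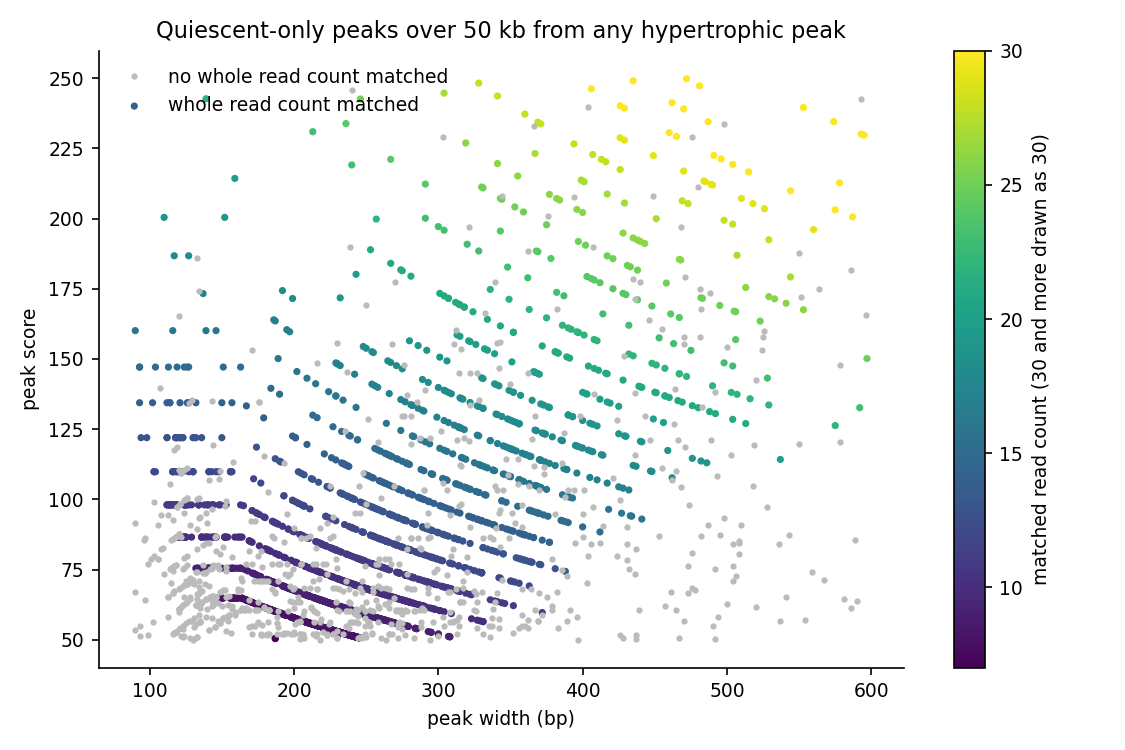
Peak score against peak width for remote quiescent-only peaks up to 600 bp wide and scoring up to 250; coloured points matched a whole read count at the constant rate of 5.25 reads per kb (colour gives the count), grey points matched none. The coloured points, which belong to the 71.3% of remote peaks with a constant-rate score, fall on separate curves, 1 per read count, that are flat below 164 bp and decline with width above it.

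The matched read counts, n in that formula, were inferred from score and width and were low for most remote peaks. Over the 2223 peaks the median was 11 reads, with quartiles of 9 and 17. Nearer quiescent-only peaks with a constant-rate score were alike, with a median of 11 and quartiles of 9 and 16. Shared quiescent peaks with a constant-rate score had a median of 21 reads, with quartiles of 13 and 43. Exactly 8 reads, the commonest count, underlay 399 remote peaks, and 9 reads underlay 316. Counts of 8 or fewer made up 18.0% for remote, 20.1% for nearer and 11.3% for all quiescent peaks with a constant-rate score. At the upper end 397 remote quiescent-only peaks (17.9%) had 20 reads or more and 166 (7.47%) had 30 or more. Only 24 (4.22%) and 3 (0.527%) remote hypertrophic-only peaks did. These 2 shares were 18.1% and 7.58% for nearer quiescent-only peaks, and 39.4% and 25.1% for all quiescent peaks with a constant-rate score. For all such hypertrophic peaks they were 33.9% and 19.9%. The ratio of remote quiescent-only to remote hypertrophic-only peaks was 2.19 (exact interval 1.84 to 2.62) for 7 or 8 reads, 3.53 (3.03 to 4.13) for 9 to 11, 4.52 (3.78 to 5.43) for 12 to 19, and 11.0 (7.03 to 18.1) for 20 to 29. Over all peaks with a constant-rate score these ratios were 0.833, 1.27, 1.10 and 1.21. Within each of these classes of read count the remote quiescent-only peaks had a lower median height and a greater median width than the remote hypertrophic-only ones. With 20 to 29 reads their median height was 10 and their median width 410 bp, against 10 and 403 bp for nearer quiescent-only peaks, 13 and 352 bp for shared quiescent peaks, and 13 and 355 bp for the 21 remote hypertrophic-only peaks.

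Most of the excess lay in peaks with a constant-rate score. Of these there were 2223 remote quiescent-only and 569 remote hypertrophic-only ones, a ratio of 3.91 (exact interval 3.56 to 4.29). Among peaks with any other score the counts were 897 and 695, a ratio of 1.29 (1.17 to 1.43). The 897 remote quiescent-only peaks without a matched read count were taller, with a median height of 11 against 8 for the matched ones, and had a lower median score, 70.9 against 84.4. No matched peak was taller than 29, and none of the 50 remote peaks with a height above 45 had a constant-rate score.

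The 10 highest-scoring remote quiescent-only peaks stood on 10 chromosomes. First was the peak on chromosome 15 from 59343565 to 59345168, which reached 2707 with a height of 29 and a matched count of 253 reads over 1604 bp. The 303 shared quiescent peaks within 10% of that score had a median height of 79. The second, which spanned 4398365 to 4398933 of chromosome 19, scored 1012 and had 92 reads but a height of 26, and its nearest hypertrophic peaks lay 1170882 bp to the left and 165751 bp to the right. A broader peak on chromosome 9 from 46035165 to 46036403 matched no whole read count, and scored 964 at a height of 16. Chromosome 17 held the next, from 85736981 to 85737804, which scored 815 on 88 reads and was 19 high.

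The next 6 showed the same low pileups. On chromosome X a peak of 1582 bp from 95921254 to 95922835 scored 795 with a height of only 11, although 108 reads were matched to it. Chromosome 2 from 216069531 to 216070247 had 81 reads, a score of 771 and a height of 27. On chromosome 6, 69 reads in 462 bp from 46392488 to 46392949 gave a score of 742 and a height of 25. Those on chromosome 11 from 12250990 to 12251694, chromosome 1 from 45636669 to 45637316 and chromosome 10 from 101331990 to 101332645 scored 684, 683 and 679, with heights of 24, 20 and 22. All 10 were lower than the median of shared quiescent peaks within 10% of their score, which ranged from 37 to 79.

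The 5 tallest remote peaks had heights of 157 to 164 and scores from 80.6 to 564. A peak on chromosome 17 from 12187367 to 12189569 reached 164, with a score of 564 over 2203 bp, and lay 50983 bp from a hypertrophic peak, close to the limit. The greatest height was exactly 164 among remote, nearer and shared peaks of both lists, so that value does not single out this peak. A pair on chromosome 18, from 28207867 to 28208342 and from 28210917 to 28211424, had heights of 164 and 157 but scores of only 81.0 and 80.6. Shared quiescent peaks of such scores had a median height of 10. The widest of all, 4654 bp on chromosome 15 from 59667454 to 59672107, was 162 high and scored 270. A peak of chromosome 1 from 168381751 to 168382568 combined a height of 157 with a score of 105.

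Width picked out some of the same peaks. After the 4654 bp peak of chromosome 15 and the 2203 bp peak of chromosome 17 came one on chromosome 4 from 376599 to 378527, 1929 bp wide with a height of 95. Another, on chromosome 1 from 198504847 to 198506693, was 1847 bp wide but had a height of only 17. The fifth, on chromosome 9 from 45085739 to 45087509, was 1771 bp wide and 124 high, and scored 97.3. Only 20 remote peaks (0.641%) were wider than 1000 bp, against 2.18% of nearer quiescent-only, 8.87% of shared and 6.86% of all quiescent peaks. Heights above 100 were also found at 20 remote peaks (0.641%), against 5.13% of all quiescent peaks. Of these 20 remote peaks, 11 scored under 100, as did 67.2% of all remote quiescent-only peaks.

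Most remote quiescent-only peaks stood alone. When neighbouring remote peaks up to 50 kb apart were joined into runs, 1953 peaks remained single and 1167 (37.4%, Wilson interval 35.7 to 39.1%) fell into 496 runs of 2 or more. There were 374 runs of 2, 89 of 3, 19 of 4 and 14 of 5 or more. Remote hypertrophic-only peaks formed 147 runs, which held 27.2% of them, and 1 run had 5 members. The groups differ in size, 3120 against 1264 peaks, and the share in runs depends on that size. Within quiescent runs the median gap between neighbours was 11432 bp, and 130 of 671 gaps were 1 kb or less. Peaks in runs had a median score of 85.6, single ones 76.2, and the 152 peaks in runs of 4 or more had 89.8. A score of at least 200 was reached by 10.5% of peaks in runs and 7.27% of single ones. For 1758 remote peaks (56.3%) no other quiescent peak of any kind lay within 50 kb, against 6.04% of shared quiescent peaks. This contrast is partly built in, since few shared peaks can lie where the rule allows no hypertrophic peak. Among remote hypertrophic-only peaks, 64.4% had no other hypertrophic peak within 50 kb.

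By the rule, any stretch between neighbouring hypertrophic peaks that held a remote quiescent-only peak was over 100 kb long. Most stretches of that length held no such peak. Between neighbouring hypertrophic peaks there were 6200 stretches over 100 kb, which added up to 1551 Mb, and 1923 of them held at least 1 remote quiescent-only peak. Stretches of that length between quiescent peaks numbered 6378, added up to 1435 Mb, and 959 held a remote hypertrophic-only peak. Per Mb of such sequence there were 2.01 remote quiescent-only and 0.879 remote hypertrophic-only peaks. The fullest hypertrophic-free stretch held 12 remote quiescent-only peaks, and 105 stretches held 4 or more. Beyond the outermost hypertrophic peak of a chromosome lay 8 remote peaks, whose distance could be measured on 1 side only.

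The largest run, of 8 peaks, lay on chromosome 1 from 74943194 to 75002599. Its nearest hypertrophic peaks were 1016669 bp to the left and 833371 bp to the right. All 8 peaks had a constant-rate score, with heights from 6 to 12. The strongest pair, each 426 bp wide and 3.2 kb apart from start to start, scored 229 and 240.2 with 29 and 30 reads, and the other 6 scored from 52.5 to 135.

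Runs of 6 peaks occurred on chromosomes 3, 15 and 17. On chromosome 3, from 57986148 to 58029297, they fell into a pair scoring 261 and 239 and, about 36 kb further on, 4 peaks scoring from 67.5 to 172. On chromosome 15, from 35090398 to 35104571, the 6 peaks were packed into 14174 bp and scored from 59.4 to 120. The run on chromosome 17, from 68106905 to 68112585, was tighter still at 5681 bp, and all 6 had constant-rate scores, 4 of them with 8 reads. It contained 2 peaks of identical width (208 bp), score (56.4) and height (6), which began 4.62 kb apart.

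The runs of 5 were ordered by their summed score. One on chromosome 7, from 76009446 to 76012999, spanned only 3554 bp and held 5 peaks scoring from 74.9 to 381 with 10 to 50 reads each, all with constant-rate scores. On chromosome 10, from 9648647 to 9784615, 5 peaks spread over 135969 bp, and the last 3 scored 332, 326 and 265. A second run on chromosome 7, from 28240462 to 28380649, was as dispersed, over 140188 bp with scores from 59.9 to 239. The eighth, on chromosome 1 from 226275640 to 226324279, scored from 53.5 to 160 with heights from 5 to 14.

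**Figure D4:**
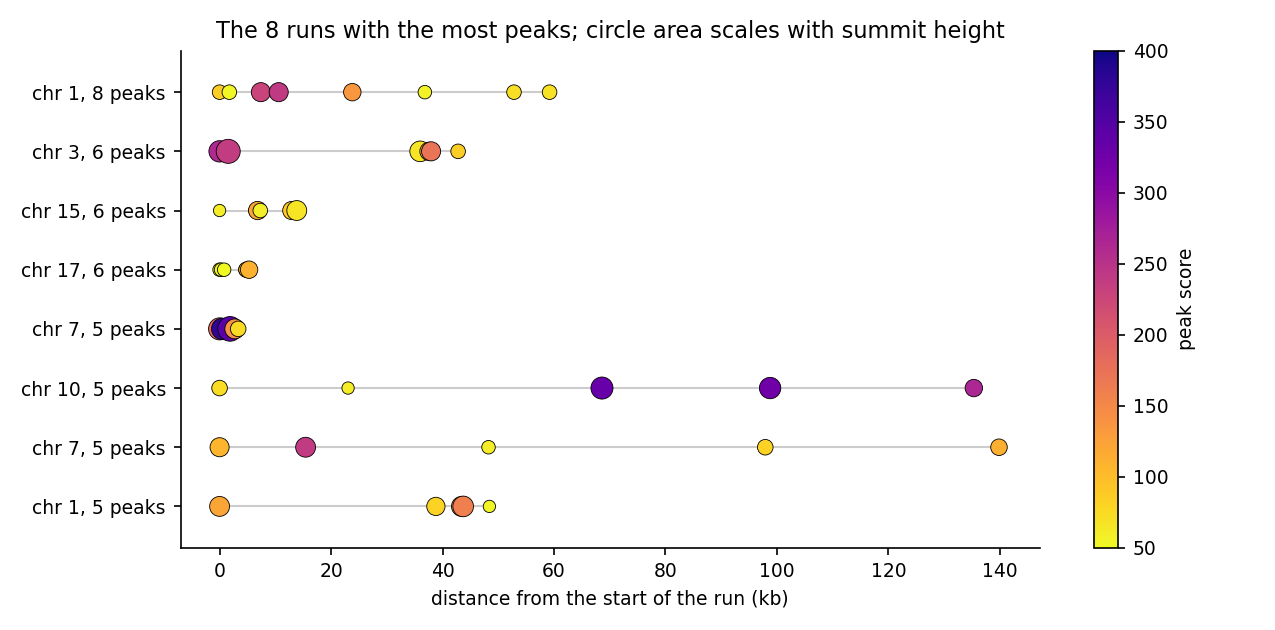
The 8 runs with the most remote quiescent-only peaks, each drawn from its first peak (0 kb), with 1 circle per peak; circle area scales with summit height and colour gives the score. The runs of chromosomes 15 and 17 and the upper run of chromosome 7 are compact, spanning 14174, 5681 and 3554 bp, while that of chromosome 10 extends over 135969 bp.

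Remote quiescent-only peaks were found on all 21 chromosomes with peaks. Their share of the quiescent peaks was highest on chromosome X, with 179 of 1896 peaks (9.44%, Wilson interval 8.21 to 10.8%), chromosome 15, with 154 of 2179 (7.07%), and chromosome 11, with 133 of 2042 (6.51%). It was lowest on chromosome 12, with 33 of 2176 (1.52%, interval 1.08 to 2.12%), chromosome 20, with 46 of 1917 (2.40%), and chromosome 10, with 90 of 3597. Chromosomes with more quiescent peaks per Mb had smaller shares, with a Pearson r of -0.91 and a Spearman rho of -0.94 across the 21 chromosomes, whose values share libraries and in which peak spacing enters both measures. Counted per Mb of spanned sequence, remote peaks varied less, between 0.706 on chromosome 12 and 1.52 on chromosome 11, and chromosome X was near the middle at 1.11.

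On every chromosome remote quiescent-only peaks outnumbered remote hypertrophic-only ones. The ratio was lowest on chromosome 20, at 46 against 26, and on chromosome X, at 179 against 98. It was highest on chromosome 19, at 62 against 12 (5.17), and on chromosome 17, at 124 against 29 (4.28). Across chromosomes the median height of the remote peaks was 8 to 9 and constant-rate scores made up 62.9 to 78.8% of them, while the median score ran from 70.8 to 100.5 and the share scoring at least 200 from 4.47% on chromosome X to 21.2% (7 of 33) on chromosome 12. Chromosome 12, with the fewest remote peaks, also had the greatest median width among them (327 bp).

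**Figure D5:**
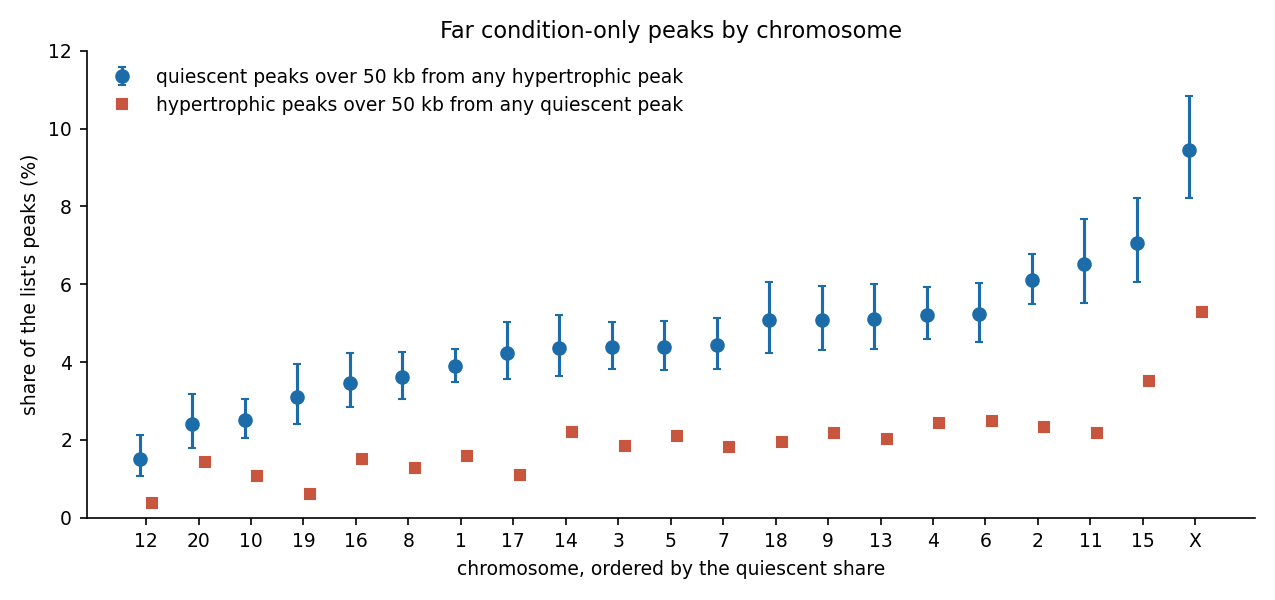
Share of each list's peaks that lie over 50 kb from any peak of the other list, by chromosome; blue circles with Wilson 95% counting intervals are quiescent peaks and red squares hypertrophic peaks. The quiescent share runs from 1.52% on chromosome 12 to 9.44% on chromosome X and exceeds the hypertrophic share on all 21 chromosomes.

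Along the chromosomes the remote quiescent-only peaks were spread widely. Of 555 windows of 5 Mb with quiescent or hypertrophic peaks, 529 held at least 1, with a median of 5. The 70 windows with 10 or more held 820 of them (26.3%). The highest number, 21, was on chromosome 13 from 20000001 to 25000000, where they were 21 of only 31 quiescent peaks, beside 22 hypertrophic peaks of which 6 were remote. There were 19 on chromosome 3 from 55000001 to 60000000, and 18 on chromosome 11 from 10000001 to 15000000. Chromosome 17 had 2 such windows: the first 5 Mb, with 17 remote quiescent-only peaks and 1 remote hypertrophic-only peak, and the window from 65000001 to 70000000, with 16 and 0. These windows were picked after their values were seen.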

How the data were processed

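The analysis used the deposited m6A peak and summit lists of quiescent (named Normal) and hypertrophic neonatal rat cardiomyocytes. Per the submitters' processing notes, the tools were CASAVA 1.8, TopHat and MACS 1.4 and the build was rn4; settings are not stated there. The deposited score per peak and the deposited summit signal (pileup height) are the authors' values, with no scaling stated. Read totals are not given in the sources used here. Columns of other samples numbered 0.

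Distances are the bases between peak edges, checked against bedtools 2.31.1. Runs join members up to 50 kb apart. Constant-rate scores were fitted on widths of 220 to 400 bp and pairs found at 3 or more peaks, for counts up to 399 reads. The distance rule was tested on the deposited lists with hypertrophic peaks removed around known quiescent peaks, and the fit on simulated data. Shares carry Wilson and ratios exact binomial 95% intervals. With 1 list per condition there was no test. Computation ran in Python 3.11.15 (pandas 2.3.3, scipy 1.17.1, numpy 2.4.6), and figures in matplotlib 3.10.9.

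Members and lists of settings were chosen with earlier results of these data known. Named peaks followed a rule: the 10 highest scores, 5 greatest heights, 5 widest, 5 farthest, 8 runs with the most members, and 2 on each side of the limit.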

Additional observations from a re-analysis of the deposited data

How the results depend on the processing

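No paired analysis was possible because each condition has 1 list with no replicate columns, and no replicate could be left out. Of 71 recomputed values over 12 results, 28 stayed within their interval or, for counts, within 1.5 times, and summit-to-summit distance moved none. In all 7 recomputed ratios the remote quiescent-only peaks outnumbered the remote hypertrophic-only ones, from 1.12 to 4.69 times.

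With a distance over 20 kb there were 6663 remote quiescent-only peaks (9.74% of the list), a median width of 256 bp, 1072 runs, 3945 remote hypertrophic-only peaks, a ratio of 1.69 and a constant-rate share of 69.2%. Over 100 kb there were 1391 (2.03%), a median score of 75.7, a width of 243 bp, 6.25% with a score of at least 200, 185 runs holding 31.2%, 439 remote hypertrophic-only peaks, a ratio of 3.17 and a constant-rate share of 73.2%. Counting only scores of at least 100 left 1022 (2.48%), with a median score of 143, height of 11 and width of 366 bp, 25.9% at 200 or more, 105 runs holding 22.3%, 218 remote hypertrophic-only peaks, a ratio of 4.69, and a height of 0.643 times that of shared quiescent peaks of like score, against 0.778 over all scores. Requiring that score only of the neighbouring list gave 8163 (11.9%), a median score of 85.7, a width of 258 bp, 11.3% at 200 or more, 1688 runs holding 54.3%, 4814 remote hypertrophic-only peaks and a ratio of 1.70. The share in runs was 24.4% with gaps up to 20 kb, 46.5% up to 100 kb and 61.9% when all members between the same hypertrophic peaks were joined.

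Settings chosen after seeing the data, the constant-rate shares above included, gave a ratio of 1.97 when each list was limited to its top 60000 by score, 1.12 with heights of at least 10 in both lists, and a constant-rate share of 80.7% at the fitted widths. These counts move with the rule by construction; for the ratio with heights of at least 10 the cause was not tested. Unknown read totals limit any reading of heights between the lists.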
